A study of Mus musculus with 6 samples.

Results

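Large thymic epithelial cells (TEC) with intermediate reporter signal were compared with small reporter-negative TEC, by taking the 2 arrays titled low and the 2 titled negative out of the 6 arrays of the series, across 17639 genes. Both gates came from C57BL/6 mice aged 4 weeks that carried a bacterial artificial chromosome transgene, Tg(Meis1-EGFP)FO156Gsat/Mmcd, which expresses green fluorescent protein from Meis1 regulatory sequence. Each array held RNA from a pool of 6 mice, sorted as CD45- EpCAM+ cells. The Meis1-low gate took cells of intermediate EGFP and high forward scatter, a measure of size, and the Meis1-negative gate took EGFP- cells of low forward scatter. Reporter level and cell size therefore differed together and cannot be told apart here, and EGFP from the transgene stands in for Meis1 itself. RNA input was 10 ng per pool, which was amplified before Cy3 labelling. Values are log2 signal relative to the 75th percentile of the array, and replicate 1 of both gates lay on slide 1 and replicate 2 of both gates on slide 2. In each list of values below, replicate 1 comes first.

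The thymus teaches T cells to tolerate the body's own proteins, and its epithelium does much of this work. Medullary TEC (mTEC) transcribe a large number of genes that are otherwise restricted to single organs, under the regulators Aire and Fezf2, and mature through RANK signals into cells rich in MHC class II. Later mTEC states resemble cornified skin, microfold, tuft, ciliated or endocrine cells, while cortical TEC support early thymocytes. Meis1 is a homeodomain protein of the TALE class best known for stem cell maintenance.

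Proximal promoter sequence is shown for the gene groups that run through the comparison, with the share of each group that holds a motif. RefSeq promoters of build GRCm38.p6, covering 250 bases before to 50 bases after a gene's start, were matched by symbol to 11560 of the 17639 genes, and the first promoter listed was used. The TATA box letters TATAAA, read on both strands, were present in 10 of 27 Aire-induced antigen promoters (37.0%), 5 of 14 Aire-independent antigen promoters (35.7%) and 10 of 23 promoters of cornified-cell genes (43.5%). The share was 13.6% among all 32851 promoters of the table and 9.65% among the genes tested. The 100 bases before the start are given 5′ to 3′ for 4 members with the match in capitals (Crisp3, chr17:40242289-40242388, minus strand; Svs5, chr2:164332665-164332764, plus strand; Ivl, chr3:92573736-92573835, minus strand; Crisp1, chr17:40319208-40319307, minus strand).
Crisp3: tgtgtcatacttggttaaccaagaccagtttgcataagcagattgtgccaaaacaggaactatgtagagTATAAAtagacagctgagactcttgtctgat
Svs5: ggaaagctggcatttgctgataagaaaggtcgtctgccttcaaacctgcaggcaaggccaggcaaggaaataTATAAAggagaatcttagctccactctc
Ivl: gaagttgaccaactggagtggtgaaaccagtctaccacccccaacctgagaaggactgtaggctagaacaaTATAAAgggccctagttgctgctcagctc
Crisp1: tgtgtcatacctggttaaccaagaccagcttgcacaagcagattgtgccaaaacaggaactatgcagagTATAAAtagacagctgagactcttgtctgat
The match began 28 to 31 bases before the start in these 4 promoters, and the Crisp1 and Crisp3 promoters, from paralogous genes of secreted proteins, shared 96 of 100 bases. A match describes the letters only. In cell-cycle genes other motifs were counted. E2F-type sites, searched as TTTCCCGC, TTTGGCGC, TTTCGCGC and TTTGCCGC on both strands, were present in 12 of 30 DNA replication promoters (40%) and in 1 of 27 mitosis promoters, against 2.26% of all promoters and 3.68% of the genes tested. The cell cycle homology region, searched as TTTGAA on both strands, was present in 21 of 27 mitosis promoters (77.8%) and in 4 of 30 DNA replication promoters, against 17.9% of all promoters and 12.9% of the genes tested. TTTGAA was also present in 12 of 27 Aire-induced promoters (44.4%) and 6 of 23 cornified-cell promoters (26.1%), so it is not particular to mitosis genes; the Svs5 and Gins3 promoters shown hold it as well, in lower case. By their letters, no 2 of these motifs could overlap in any promoter. The 100 bases before the start are given for 3 replication genes (Rfc3, chr5:151651209-151651308, minus strand; Mcm6, chr1:128359706-128359805, minus strand; Gins3, chr8:95633459-95633558, plus strand) and for 3 mitosis genes (Kif11, chr19:37376282-37376381, plus strand; Top2a, chr11:99024190-99024289, minus strand; Cdc20, chr4:118437344-118437443, minus strand), again with the match in capitals.
Rfc3: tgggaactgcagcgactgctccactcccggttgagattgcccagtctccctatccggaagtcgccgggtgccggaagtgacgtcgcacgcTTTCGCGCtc
Mcm6: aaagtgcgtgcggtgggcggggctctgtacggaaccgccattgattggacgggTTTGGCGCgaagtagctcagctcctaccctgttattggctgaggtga
Gins3: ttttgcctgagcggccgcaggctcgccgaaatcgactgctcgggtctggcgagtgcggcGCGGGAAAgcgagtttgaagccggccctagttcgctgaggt
Kif11: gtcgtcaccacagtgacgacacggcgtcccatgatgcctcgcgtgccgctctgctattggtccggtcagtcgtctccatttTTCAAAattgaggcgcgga
Top2a: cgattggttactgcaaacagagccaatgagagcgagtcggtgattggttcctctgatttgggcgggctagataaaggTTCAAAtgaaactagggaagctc
Cdc20: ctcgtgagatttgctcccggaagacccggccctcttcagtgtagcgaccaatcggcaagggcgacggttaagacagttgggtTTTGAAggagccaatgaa
Among the genes whose gates lay apart, defined below, TATAAA was present in 17.0% of promoters of genes higher in Meis1-low cells, in 10.1% of those lower and in 7.78% of the rest. Their median number of CG dinucleotides in the 300 bases was 9 in the first set, 19 in the second and 20 in the rest. These gene sets were chosen on the same arrays, so the shares are descriptions.

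Before any gene is named, 1 array has to be set apart. Signal at the 75th percentile reached 159 and 164 for Meis1-low and 114 and 165 for Meis1-negative pools, and the share of spots well above background was 62.0% and 68.0% against 54.2% and 69.6%. Across genes the 2 Meis1-low arrays correlated at r = 0.924 and the 2 Meis1-negative arrays at r = 0.834, while Meis1-low and Meis1-negative correlated at 0.742 on slide 1 and 0.948 on slide 2. Negative replicate 1 was the lowest of the 4 arrays for 7366 genes and the highest for 6220. It carried high thymocyte transcripts, as given below, so every difference is given for slide 1 and slide 2 apart. Epcam, the surface protein used in the sort, was at 4.31 and 4.79 in Meis1-low cells and at 2.58 and 4.41 in Meis1-negative cells, and Ptprc, which encodes CD45, was at -1.0 and 0.43 against 5.16 and 3.17. The sort marker was thus lowest, and the excluded marker highest, on negative replicate 1, although Ptprc was also high on negative replicate 2.

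No gene passed an adjusted p of 0.05 in either direction (0% of 17639 genes both for higher and for lower in Meis1-low cells; limma with Benjamini-Hochberg adjustment, smallest adjusted p = 0.245). Without adjustment, 1143 genes had p under 0.05, of which 682 were higher and 461 lower in Meis1-low cells. On simulated arrays with a single spread per gene in both gates, this fit called 0 of 50 genes made to differ by 2 (log2). It called 32 of 50 at 4, 47 of 50 at 6 and 9 of 17439 unchanged genes. The real gates differed in spread, with a median SD of 0.40 for Meis1-low and 0.75 for Meis1-negative arrays. The simulated counts therefore need not hold for them. Each p-value measures only the spread between these pools, 2 per gate. The following counts describe how the arrays lie and carry no error rate. A gene is called apart when both arrays of one gate lie above both of the other and the means differ by at least 1. By this measure 2997 genes were higher (17%) and 1512 lower (8.57%) in Meis1-low cells. Without negative replicate 1 the counts were 1459 higher (8.27%) and 1612 lower (9.14%). There a gene was apart when both Meis1-low arrays lay beyond the single negative array left, by at least 1 in the means. This rule is looser, so genes not apart before can enter, and its counts compare only with its own shares. Counts apart in every list below are to be read against these shares of all genes. The direction was the same on both slides for 6097 higher genes (34.6%) and 5011 lower genes (28.4%). On slide 1 alone, 32.8% of genes were at least 1 higher and 23.4% at least 1 lower; on slide 2 alone, the shares were 5.88% and 6.07%. The median over all genes was 0.11 on slide 1 and 0.04 on slide 2.

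**Figure D1:**
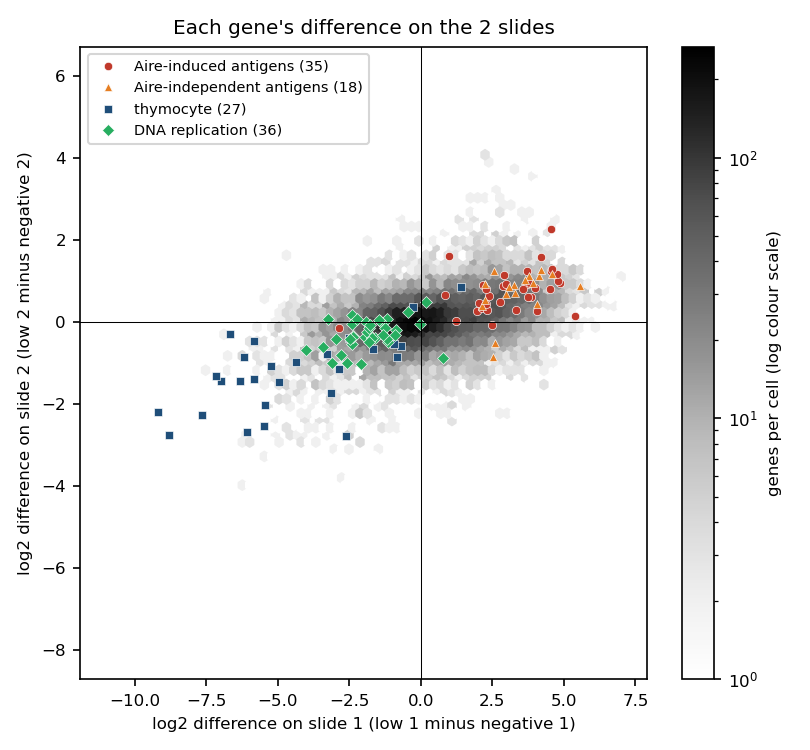
Log2 difference of each gene, Meis1-low minus Meis1-negative, on slide 1 (x axis) and slide 2 (y axis); grey cells show the number of genes on a log colour scale and symbols mark 4 gene lists. Slide 1 spans a wider range than slide 2; Aire-induced and Aire-independent antigens lie mostly in the upper right, thymocyte genes in the lower left, and DNA replication genes to the left with values near 0 on slide 2.

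Tissue-restricted antigens were higher in Meis1-low cells on both slides. Of 35 Aire-induced antigens tested (38 listed, 37 on the array), 33 were higher on both slides and 1 was lower on both, and 30 lay apart higher and 1 apart lower, against 17% and 8.57% of all genes. Their median difference was 3.32 on slide 1 and 0.79 on slide 2, a ratio of 1.73-fold on slide 2. Of 18 Aire-independent antigens (21 listed), 16 were higher on both slides, 15 lay apart higher, and the medians were 3.27 and 0.89. Without negative replicate 1, 15 of the 35 and 9 of the 18 lay apart higher by the looser rule, against 8.27% of all genes. On slide 2 alone, 8 of the 35 and 6 of the 18 were at least 1 higher, against 5.88% of all genes, and none was at least 1 lower, against 6.07%. None of these antigens passed an adjusted p of 0.05. A gene was tested when it was well above background on both arrays of a gate, and 10 of the 35 and 4 of the 18 passed in the Meis1-low gate alone. Such genes could hardly lie the other way, so these counts are descriptions. The same limit holds for other lists: 8 of 43 junction and keratin genes, 10 of 36 chemokine and cytokine genes, 7 of 24 tuft genes and 6 of 10 endothelial genes, for example, passed in the Meis1-low gate alone.

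Milk protein genes show the pattern. Csn2, which encodes beta-casein, was at 5.21 and 5.02 in Meis1-low cells and at 3.05 and 4.13 in Meis1-negative cells, a difference of 1.53 ± 0.71 (limma SE, n = 2 arrays per gate). Csn1s1, an alpha-casein gene, was at 0.05 and -0.93 against -4.49 and -2.19. Csn1s2a was at 3.14 and 2.65 against 0.27 and 1.77. In all 3 the gates did not overlap, and the smaller gap was on slide 2, at 0.89, 1.25 and 0.88. The kappa-casein gene Csn3 was at -0.86 and -0.59 against -4.94 and -0.86, so that on slide 2 it differed by only 0.27 and its gates met.

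Genes of the pancreas, gut and liver followed. Ins2, an insulin gene and a classical Aire target, was at 0.63 and 0.74 against -3.09 and -0.18, a difference of 2.32 ± 1.04 (limma SE, n = 2 arrays per gate). Fabp9, a testis fatty acid binding protein, was at 4.45 and 4.43 against -0.31 and 3.26. Apoa4, a gut apolipoprotein, was at 0.95 and 1.66 against -1.97 and 0.52. Each of the 3 was higher in Meis1-low cells on both slides, by 0.93, 1.17 and 1.14 on slide 2. Mup4, a major urinary protein of liver, was at 3.1 and 2.39 against -1.71 and 1.39; its near-identical paralogs share sequence, so the probe may read several of them. Crisp3, a secreted protein of salivary gland and epididymis, was at -1.30 and -1.40 against -5.85 and -3.66, Crisp1 at -0.47 and -1.03 against -5.06 and -2.34, and Svs5, of seminal vesicle, at -1.40 and -2.66 against -5.59 and -4.24. Crisp3 had an adjusted p of 0.67 (limma with Benjamini-Hochberg), and Svs5 was not well above background on either Meis1-negative array. For such a gene the fold is a bound: the mean of the brighter gate over the mean, per array, of the dimmer gate's signal or the lowest signal well above background, whichever was higher. Svs5 was at least 3.82-fold higher in Meis1-low cells. In bulk RNA, fewer cells of a type and less RNA per cell cannot be told apart.

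Aire-independent antigens gave like values. Apoh, a plasma apolipoprotein, was at 1.52 and 0.01 against -2.27 and -1.12, and Apoc3 at 0.23 and -0.08 against -2.32 and -1.31. Fgg, the fibrinogen gamma chain, was at 2.78 and 2.71 against -1.35 and 1.6. The slide 2 differences were 1.13, 1.23 and 1.11. Sox10, a neural crest regulator, was at -1.20 and -1.81 against -5.42 and -3.08, and Itih3, a liver protein, at 1.54 and 0.95 against -3.05 and -0.23. Not every member followed: on slide 2 Crp, C-reactive protein, was 0.51 lower at -0.52 against -0.01, and Casr, the calcium-sensing receptor, 0.86 lower at -3.19 against -2.33. The mucin Muc6 was the single Aire-induced member that lay apart lower, at -5.59 and -3.13 against -2.73 and -2.98.

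The regulators of these antigens were also higher in Meis1-low cells on both slides. Aire was at 3.87 and 4.65 in Meis1-low cells and at 1.22 and 3.84 in Meis1-negative cells, a difference of 1.72 ± 1.0 (limma SE, adjusted p = 0.68, n = 2 arrays per gate). Fezf2, the second antigen regulator of mTEC, was at 3.48 and 2.73 against 0.52 and 2.17, a difference of 1.76 ± 0.82. On slide 2 Aire was 0.80 and Fezf2 0.56 higher, against 2.64 and 2.96 on slide 1. The probes lie at mm9 chr10:77492823-77492882 for Aire, chr14:13175057-13175116 for Fezf2, chr5:88121767-88121826 for Csn2 and chr7:149864675-149864734 for Ins2; their exon or UTR was not analysed here. Of 24 genes for proteins that act with Aire, 1 lay apart higher and 2 apart lower (17% and 8.57% of all genes). Their median was -1.05 on slide 1 and -0.07 on slide 2. Among them Xrcc6, a DNA end-binding protein, was at -2.66 and -2.75 against 1.08 and -2.06, and Sirt1, the deacetylase that acts on Aire, at 3.66 and 3.49 against 1.64 and 3.04.

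**Figure D2:**
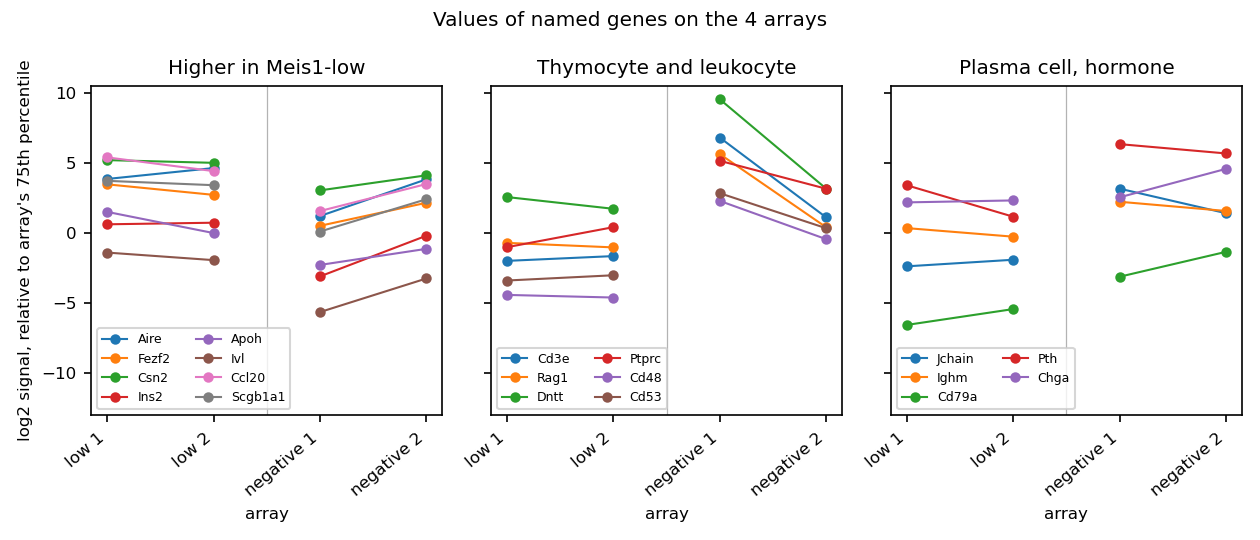
Log2 signal relative to the array's 75th percentile (y axis) on each of the 4 arrays (x axis) for named genes; lines join the 2 arrays of a gate. Antigen and mTEC genes are highest on the Meis1-low arrays and lowest on negative replicate 1, thymocyte genes are highest on negative replicate 1, and Jchain and Pth are high on both negative arrays.

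Maturation genes of mTEC were higher on slide 1 and close to equal on slide 2. Of 36 tested, 16 lay apart higher and none lower (17% and 8.57% of all genes). Without negative replicate 1 only 2 lay apart higher and 5 lay apart lower (8.27% and 9.14% of all genes). The list median was 2.54 on slide 1 and 0.10 on slide 2. H2-Ab1, an MHC class II chain, was at 7.95 and 7.57 against 5.51 and 7.36, and Ciita, the class II transactivator, at 1.59 and 1.22 against -2.45 and 0.92. The costimulatory ligand Cd80 was at 1.91 and 2.05 against -2.12 and 1.78. In each of these the slide 2 gap was 0.31 or less. Tnfrsf11a, the RANK receptor, was at 5.0 and 5.46 against 2.85 and 5.28, and Cd40 at -0.14 and -0.46 against -2.87 and -0.24, so that Cd40 was 0.23 lower on slide 2. Hdc, histidine decarboxylase, kept a gap on both slides, at 6.50 and 5.12 against 3.40 and 4.48, as did Plekha4 at 1.25 and -0.06 against -1.6 and -1.69. Cd86 turned around: it was 4.42 higher on slide 1 and 1.22 lower on slide 2.

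Genes of the late mTEC states that resemble other epithelia leaned higher on both slides. Among cornified-cell genes, 24 of 32 were higher and 2 lower on both slides (34.6% and 28.4% of all genes), 20 lay apart higher (17% of all genes), and the median was 3.06 on slide 1 and 0.52 on slide 2. Of the 32, 11 passed the background filter in the Meis1-low gate alone, and without negative replicate 1, 5 of 32 lay apart higher (8.27% of all genes). Ivl, involucrin of the cornified envelope, was at -1.39 and -1.92 against -5.63 and -3.23, and Klk7, a skin protease, at 2.94 and 2.49 against -0.60 and 1.38. Krt1, a keratin of differentiated epidermis, was at 0.15 and -0.24 against -5.57 and -1.27, and Lypd3 at 1.24 and 0.56 against -2.17 and -0.19. All 4 were at least 0.75 higher on slide 2. Flg, filaggrin, was 0.23 lower there at 3.13 against 3.36.

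Microfold genes gave 12 of 16 higher on both slides and 10 apart higher, against 34.6% and 17% of all genes. Their median was 2.99 on slide 1 and 0.38 on slide 2. Without negative replicate 1, 3 lay apart higher (8.27% of all genes). Of the 16, 2 passed the filter in the Meis1-low gate alone, and none was at least 1 higher on slide 2. The chemokine gene Ccl20 was at 5.41 and 4.43 against 1.58 and 3.51, Ccl6 at 2.72 and 1.81 against -2.01 and 0.83, Sox8 at -0.88 and -0.96 against -4.53 and -1.88, and Serpinb1a at 6.35 and 5.59 against 3.57 and 4.88. These 4 were 0.71 to 0.98 higher on slide 2. Of 29 secretory, ciliated and endocrine genes, 23 were higher on both slides and 17 lay apart higher, against 34.6% and 17% of all genes, with medians of 1.83 and 0.45; 9 of the 29 passed the filter in the Meis1-low gate alone. Tekt1, a ciliary tektin, was at 0.56 and -0.53 against -2.75 and -1.96. Scgb1a1, an airway secretoglobin, was at 3.73 and 3.42 against 0.12 and 2.42. Syp, synaptophysin, was at 2.40 and 1.09 against -1.36 and 0.47, and Scg2, secretogranin, at -1.40 and -1.13 against -4.33 and -2.18. Chga, chromogranin A of endocrine granules, went the other way at 2.20 and 2.33 against 2.56 and 4.59.

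Tuft cell genes, which mark the chemosensory mTEC, did not share this. Of 24 tested, 3 lay apart higher and 4 lower (17% and 8.57% of all genes). Without negative replicate 1 none lay apart higher and 7 lower (8.27% and 9.14% of all genes). The median was 1.24 on slide 1 and -0.38 on slide 2. Trpm5, the taste channel, was at -1.25 and -1.25 against -3.32 and -1.82, higher on both slides. The 4 members apart lower are also expressed in blood cells: Vav1 was at -0.86 and -2.37 against 1.65 and -0.16, Plcb2 at -3.90 and -3.21 against -2.12 and -1.54, Alox5ap at -0.05 and -0.36 against 1.67 and 0.99, and Matk at -4.93 and -4.78 against -3.40 and -3.70, at least 1.61-fold lower. Pan-leukocyte genes moved with them, as given below; their part in the tuft values was not tested.

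**Figure D3:**
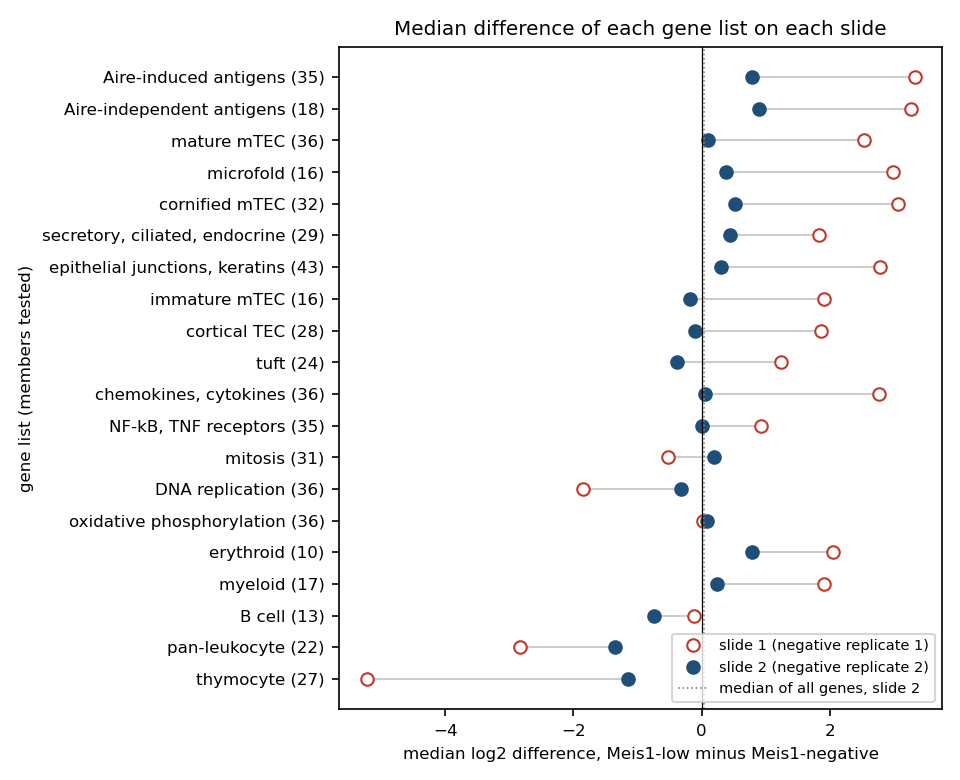
Median log2 difference, Meis1-low minus Meis1-negative, of 20 gene lists (x axis; number of members tested in brackets on the y axis) on slide 1 (open red) and slide 2 (filled blue); the dotted line is the median of all genes on slide 2. The antigen lists keep the largest positive medians on slide 2, at 0.79 and 0.89, and the thymocyte and pan-leukocyte lists the largest negative ones, at -1.15 and -1.36.

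General epithelial genes followed the slide. Of 43 junction and keratin genes, 30 were higher on both slides and none lower on both (34.6% and 28.4% of all genes). Of the 43, 20 lay apart higher (17% of all genes). Without negative replicate 1, 2 lay apart higher and 2 lower (8.27% and 9.14% of all genes). The median was 2.78 on slide 1 and 0.30 on slide 2. Krt8 was at 5.82 and 4.83 against 2.68 and 4.62, and Krt5, the basal keratin, at 5.23 and 5.29 against 3.87 and 5.95. Esrp2, an epithelial splicing factor, was at 0.56 and 0.29 against -3.0 and -1.02 and kept 1.32 on slide 2; Marveld2, a tight junction protein, kept 0.90, Rab25 0.61 and Ap1m2 0.75. Of 28 adhesion and matrix genes, 7 lay apart higher and none lower (17% and 8.57% of all genes), with medians of 1.95 and -0.10. Without negative replicate 1, 1 lay apart higher and 1 lower (8.27% and 9.14% of all genes). Of the 28, 5 passed the filter in the Meis1-low gate alone. Itgb6 was at 0.02 and -1.18 against -2.77 and -1.97, and Itgb8 and Nid2 were 0.76 and 0.20 higher on slide 2. Itga2, dim in Meis1-negative cells, was at least 1.18-fold higher.

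Cortical and immature medullary lists had slide 2 medians just below 0, with members on both sides. Cortical TEC genes had medians of 1.87 and -0.10, with 11 of 28 apart higher and 1 lower (17% and 8.57% of all genes). Without negative replicate 1 the counts were 1 and 6 (8.27% and 9.14% of all genes). Psmb11, the thymoproteasome subunit of the cortex, was at 2.20 and 1.33 against -1.37 and 2.51, and Ly75, the cortical surface receptor CD205, at 2.33 and 2.06 against 2.18 and 2.71; both were lower in Meis1-low cells on slide 2, by 1.18 and 0.65 log2 units. Snap91 was at 3.87 and 3.30 against 0.26 and 2.34, Enpep at -1.04 and -1.61 against -5.16 and -2.29 and Kitl, the Kit ligand, at -1.92 and -1.80 against -4.44 and -2.59, while Il7r, which lymphocytes also carry, was at -0.98 and -0.23 against 3.39 and 1.42. Immature mTEC genes had medians of 1.90 and -0.18. In that list Krt15 was at 0.34 and -0.75 against -3.85 and -1.63, Cldn11 at 1.85 and 1.05 against -2.13 and 0.33, Il33 at -0.80 and -0.83 against -5.74 and -1.92 and Tnfrsf11b, the RANK ligand decoy, at 2.04 and 2.67 against -0.44 and 1.71. Ccl21a, the chemokine of immature mTEC, was at 4.38 and 3.50 against 3.56 and 5.36, 0.81 higher on slide 1 and 1.86 lower on slide 2.

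Meis1 did not follow the gates. Its level was -2.35 and -1.61 in Meis1-low cells and -3.20 and -0.99 in Meis1-negative cells, a difference of 0.12 ± 0.92 (limma SE, adjusted p = 0.985, n = 2 arrays per gate), higher on slide 1 and lower on slide 2. The array probe thus gave no separation between gates that were set on the reporter. Among 14 TALE and Hox genes, 3 lay apart higher and 3 lower (17% and 8.57% of all genes), with medians of 0.52 and -0.05. Hoxa3, needed for thymus formation, was lower in Meis1-low cells by similar amounts on both slides, at -1.16 and -0.74 against 0.48 and 0.64, a difference of -1.51 ± 0.65 (limma SE, adjusted p = 0.68, n = 2 arrays per gate). Hoxa4 was at -6.37 and -4.20 against -1.81 and -3.66, Hoxb3 at -3.60 and -3.90 against -6.0 and -5.14 and Meis2 at 1.97 and 1.52 against -0.52 and 1.17. Hoxa4, dim in Meis1-low cells, was at least 2.85-fold lower and Hoxb3, dim in Meis1-negative cells, at least 1.19-fold higher. Of 23 TEC transcription factors, 11 lay apart higher and 1 lower (17% and 8.57% of all genes), with medians of 2.09 and 0.03. Without negative replicate 1, 1 lay apart higher and 1 lower (8.27% and 9.14% of all genes). Of the 23, 4 passed the background filter in the Meis1-low gate alone. Sox2 had the smallest unadjusted p of that list, at -2.64 and -3.36 against -5.56 and -6.18 and at least 2.00-fold higher; it was not well above background on either Meis1-negative array and was tested through the Meis1-low gate alone. Foxn1, the master regulator of TEC, was at 1.25 and 1.35 against -0.68 and 0.92 and Tbx3 at 0.20 and -0.50 against -5.57 and -1.14.

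RANK and NF-kB pathway genes lay apart about as often as all genes. Of 35 genes, 5 lay apart higher and 3 lower, against 17% and 8.57% of all genes, with medians of 0.93 and 0.00. Tnfrsf14, the receptor of LIGHT, was at -1.08 and -1.03 against -5.90 and -3.06, higher in Meis1-low cells by 4.82 and 2.02. Tnfrsf1b, TNF receptor 2, was at -3.84 and -2.12 against 0.51 and -0.34, Cd40lg, the T cell ligand of CD40, at -5.14 and -6.38 against -1.0 and -4.13, and the inhibitor Tnfaip3 at 4.21 and 5.04 against 6.22 and 5.76. The 3 lower genes were lower on both slides, Tnfaip3 by 0.73 on slide 2 and Tnfrsf1b by 1.78; Cd40lg, dim in Meis1-low cells, was at least 3.20-fold lower. Of 36 chemokine and cytokine genes, 14 lay apart higher and 1 lower (17% and 8.57% of all genes). Without negative replicate 1 the counts were 3 and 8 (8.27% and 9.14% of all genes). The gene apart lower on all 4 arrays was Tgfb1, at -5.23 and -4.10 against -2.73 and -2.0, at least 3.57-fold lower. Fgf10 was at -2.28 and -2.74 against -5.65 and -3.42. Ccl25 and Ccl19, which guide thymocytes, were 0.15 and 0.28 higher on slide 2, while Ccl17, Ccl5, Il6 and Ccl22 were lower there by 2.76, 2.28, 2.32 and 1.68 log2 units and higher on slide 1.

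Lymphocyte transcripts were lower in Meis1-low cells on both slides. Of 27 thymocyte genes tested (31 listed, 29 on the array), 25 were lower and 1 higher on both slides, and 21 lay apart lower and 1 apart higher, against 8.57% and 17% of all genes; 18 lay apart lower without negative replicate 1, against 9.14%. Of the 27, 4 passed the background filter in the Meis1-negative gate alone. The list median was -5.22 on slide 1 and -1.15 on slide 2, where 15 of the 27 were at least 1 lower, against 6.07%. Cd3e, a subunit of the T cell receptor complex, was at -1.98 and -1.64 in Meis1-low cells and at 6.82 and 1.12 in Meis1-negative cells, a difference of -5.78 ± 1.73 (limma SE, adjusted p = 0.68, n = 2 arrays per gate). Rag1, the recombinase of immature lymphocytes, was at -0.69 and -1.02 against 5.64 and 0.42. Dntt, which adds bases at rearranged junctions, was at 2.58 and 1.74 against 9.55 and 3.17. Negative replicate 1 stood far above the other 3 arrays in all 3 genes, and negative replicate 2 was still 1.43 to 2.76 above low replicate 2. Cd28, Cd2, Themis and Cd8b1 had the smallest unadjusted p of the list. Cd28 was at -3.96 and -4.27 against 1.54 and -1.73, and Themis at -6.51 and -4.28 against 2.67 and -2.08; neither was well above background on a Meis1-low array, and they were at least 15.6-fold and 23.2-fold lower. Cd2 was at -3.80 and -2.88 against -1.20 and -0.09, and Cd8b1 at -3.30 and -2.69 against -0.16 and -0.96.

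Pan-leukocyte genes were lower too, with 15 of 22 apart lower and none higher (8.57% and 17% of all genes) and medians of -2.84 and -1.36. Without negative replicate 1, 12 lay apart lower (9.14% of all genes). Cd48 was at -4.41 and -4.59 against 2.30 and -0.43. Cd48 was not well above background on either Meis1-low array and was at least 36.2-fold lower there. Cd53, a tetraspanin, was at -3.38 and -3.01 against 2.85 and 0.35, and Selplg, the selectin ligand, at -1.68 and -1.79 against 3.83 and 1.48. Ptprc differed by -4.45 ± 0.94 (limma SE, adjusted p = 0.60, n = 2 arrays per gate). All 4 were at least 2.74 lower on slide 2. Summed over the list, the linear signal relative to the 75th percentile was 57.4 to 60.2 in Meis1-low cells and 100.3 to 239 in Meis1-negative cells; over the thymocyte list it was 21.5 to 31.6 against 41.3 to 1299.

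Antibody genes were among the lower genes on both slides. Of the 10 genes named by the smallest unadjusted p with gaps of at least 1 on each slide, Ighv8-8, Igk-V, Jchain and Mzb1 encode or assemble antibody, and Gimap7, Cd48, Cd69, Slfn1 and P2ry10 are known from lymphocytes or other leukocytes; Xxylt1 is a glycosyltransferase. Jchain, the joining chain of IgM and IgA, was at -2.37 and -1.90 against 3.17 and 1.42, a difference of -4.43 ± 0.82 (limma SE, adjusted p = 0.60, n = 2 arrays per gate). Ighv8-8 was at -4.75 and -6.04 against 1.31 and -0.47, at least 25.3-fold lower, and Mzb1 at -5.37 and -3.67 against 0.79 and -0.10, at least 20.2-fold lower. Cd69, an early activation marker, was at -0.70 and -0.66 against 3.52 and 2.57. Gimap7 was at -6.27 and -6.06 against -2.39 and -2.46, Xxylt1 at -6.42 and -5.60 against -2.15 and -2.61, Slfn1 at -3.74 and -3.53 against -0.09 and -0.41, P2ry10 at -2.92 and -3.24 against 2.94 and 0.55 and Igk-V at -3.47 and -2.88 against 0.73 and 0.04. Gimap7 and Xxylt1 were at least 3.51-fold and 3.63-fold lower. In the 5 of these 10 genes that were well above background on all 4 arrays (Jchain, Cd69, Slfn1, P2ry10 and Igk-V) the slide 2 gap was 2.92 to 3.79.

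Tested genes whose probe the array describes as an immunoglobulin heavy or light chain were then counted, a group chosen after these values were seen. Of 73 such genes, 58 lay apart lower and none higher and 65 were lower on both slides, against 8.57%, 17% and 28.4% of all genes. Of the 73, 28 were not well above background on either Meis1-low array, and others, IGHG2B among them, on only 1. All of these passed the filter in the Meis1-negative gate alone and so could hardly lie the other way. Their median difference was -3.41 on slide 1 and -2.86 on slide 2, and 64 lay apart lower without negative replicate 1, against 9.14% of all genes. The IgM constant region gene Ighm was at 0.36 and -0.25 against 2.24 and 1.58, and the segment described as IGHG2B at -6.51 and -3.79 against 0.18 and 3.04. IGHG2C also lay apart lower, but the constant segments IGHG1, IGHG3, IGHD and IGLC3 did not lie apart. IGHG3 was at -0.55 and -1.11 against -1.37 and -0.98, and IGLC3 at 2.71 and 1.95 against 0.74 and 2.57. Variable segments are alike in sequence, so single probes may read several of them. Among 13 B cell genes, 5 lay apart lower and 1 higher (8.57% and 17% of all genes), with medians of -0.13 and -0.75. Cd79a, of the B cell receptor, was at -6.55 and -5.42 against -3.11 and -1.33, at least 4.06-fold lower. Cr2, complement receptor 2, was at 1.77 and 1.28 against -0.83 and 0.59. The summed B cell signal was 9.73 to 14.5 in Meis1-low cells and 18.6 to 18.8 in Meis1-negative cells, close to equal on both negative arrays, unlike the thymocyte sum. Pth, parathyroid hormone, named after its values were seen, was also high on both negative arrays, at 3.42 and 1.17 against 6.35 and 5.69, a difference of -3.72 ± 0.92 (limma SE, adjusted p = 0.64, n = 2 arrays per gate). The parathyroid regulator Gcm2 was at -3.13 and -2.30 against -2.98 and -1.90, and differed by 0.40 or less on either slide.

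The 10 higher genes named by the same rule were dim ones. Tmprss3, a serine protease, was at -2.0 and -1.18 against -5.60 and -5.65, at least 5.32-fold higher (limma, adjusted p = 0.57). Tfec was at -0.64 and -1.83 against -6.01 and -4.95 and at least 6.81-fold higher, and Marchf11 at -1.29 and -1.37 against -5.72 and -4.60 and at least 6.36-fold higher. Ctsr, a placental cathepsin, and Svs6, of seminal vesicle, were at least 3.61-fold and 3.13-fold higher. Platr26, Ppef1, Hmx1 and Ugt2b36 had bounds of 3.76, 3.35, 2.83 and 2.42-fold. Adarb1, an RNA editing enzyme, was at -0.15 and -1.10 against -5.64 and -3.80 and was above background on 1 negative array. Apart from Adarb1, none of the 10 was well above background on a Meis1-negative array.

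DNA replication genes were mostly lower in Meis1-low cells on both slides, and their difference from mitosis genes was not tested. Of 36 DNA replication genes, 27 were lower on both slides (28.4% of all genes) and 1 higher, 10 lay apart lower (8.57% of all genes) and none higher; the median was -1.84 on slide 1 and -0.33 on slide 2, against 0.11 and 0.04 for all genes. Without negative replicate 1, 3 lay apart lower, a share near the 9.14% of all genes. Gins2, of the replicative helicase, was at -3.38 and -1.29 against 0.63 and -0.61, a difference of -2.34 ± 0.94 (limma SE, adjusted p = 0.68, n = 2 arrays per gate). Fen1, a flap nuclease, was at -4.47 and -3.79 against -1.90 and -2.79. Pole2, a polymerase subunit, was at -2.82 and -2.85 against 0.27 and -1.85, and Cdc6, a licensing factor, at -3.32 and -2.68 against 0.10 and -2.07. In these 4 the gates did not overlap, and the slide 2 gap was 0.61 to 1.0. Rfc3, of the clamp loader, was at -1.52 and -1.56 against 0.58 and -0.53, and Mcm6, of the replicative helicase, at 6.47 and 5.63 against 8.85 and 5.97. Gins3 was at -0.20 and -1.78 against -0.97 and -0.89, 0.76 higher on slide 1 and 0.88 lower on slide 2.

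Mitosis genes gave 1 of 31 apart higher and none lower (17% and 8.57% of all genes), and medians of -0.53 and 0.19. Over the processing alternatives the median ran from -0.44 to 0.18, the highest value being that without negative replicate 1. It therefore has no settled sign. Mki67, the proliferation antigen, was at 1.80 and 3.34 against 2.72 and 3.25, and Kif11, a spindle motor, at -1.01 and -0.20 against 0.42 and -0.64. Top2a, a topoisomerase, was at 1.78 and 2.33 against 2.79 and 2.17, and Cdc20, an activator of mitotic exit, at 1.67 and 1.38 against 1.47 and 0.87. Kif20a was at 1.62 and 1.90 against 0.67 and 1.71, Ccnb2 at 0.11 and -0.35 against 0.98 and -0.15, Prc1 at 0.43 and 0.57 against 1.33 and 0.64 and Spc25 at 0.88 and 0.80 against -0.76 and 0.40. Slide 2 values of mitosis genes ran from -0.30 to 0.96 and those of replication genes from -1.03 to 0.49. Among 22 cell cycle regulators, the inhibitors Cdkn1c, at 2.03 and 1.47 against -1.09 and 0.52, and Cdkn2b, at 2.78 and 2.19 against -0.47 and 1.67, lay apart higher. Rbl1, at -1.87 and -1.20 against 0.71 and -0.64, Cdk6, at 1.66 and 1.57 against 6.76 and 2.10, and E2f1, at 0.30 and 0.15 against 2.57 and 0.77, lay apart lower. The thymocyte list moved the same way as the replication list on both slides, by -5.22 and -1.15; its part in the replication values was not tested.

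**Figure D4:**
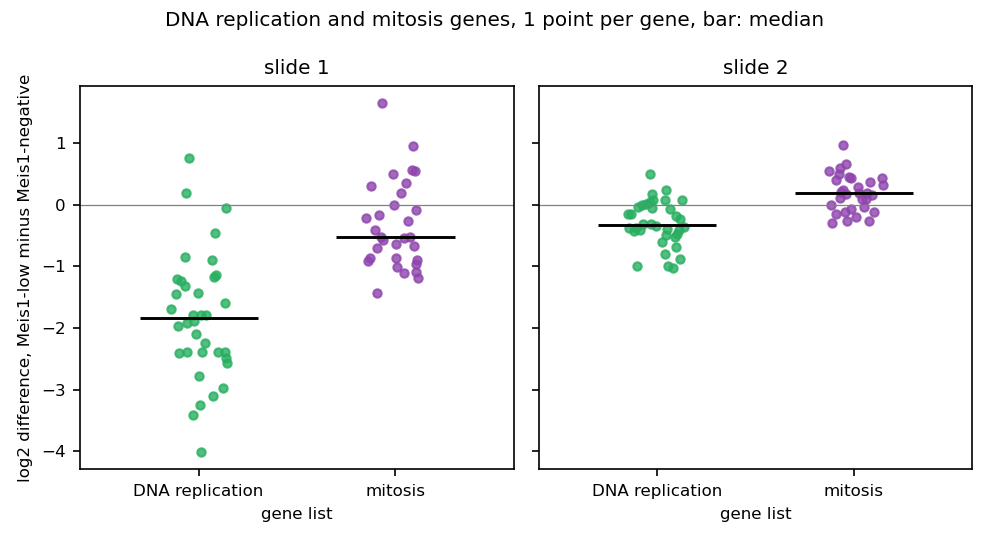
Log2 difference, Meis1-low minus Meis1-negative (y axis), of 36 DNA replication and 31 mitosis genes, 1 point per gene and a bar at the median, on slide 1 (left) and slide 2 (right). Replication medians are -1.84 and -0.33, and mitosis medians are -0.53 and 0.19.

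Housekeeping groups had slide 2 medians from -0.06 to 0.24, against 0.04 for all genes. Of 36 oxidative phosphorylation genes none lay apart in either direction, with medians of 0.02 and 0.09. Cycs was 0.09, Cyc1 0.06, Sdha 0.07 and Cox7a2 0.38 higher on slide 2. Ribosome biogenesis genes had medians of -0.66 and -0.06, with 2 of 30 apart lower (8.57% of all genes). Those apart, Wdr12 and Polr1a, were lower on both slides. Rrp1b and Nop2 were lower by 3.42 and 1.61 on slide 1 and differed by 0.15 or less on slide 2. Of 28 endoplasmic reticulum genes, 18 were higher on both slides, with medians of 0.81 and 0.20; the chaperones Hsp90b1, Calr and Creld2 were 0.53, 0.39 and 0.40 higher on slide 2, and Edem1 was at 0.51 and 1.59 against 3.85 and 2.46. Of 18 MHC class I processing genes, 3 lay apart higher, a share near the 17% of all genes, with medians of 0.42 and -0.03; H2-K1 was at 9.5 and 9.27 against 7.57 and 9.02, Pdia3 at 6.72 and 6.80 against 5.03 and 6.26 and Psme2 at 5.79 and 4.51 against 3.79 and 4.57. Cholesterol and lipid genes had medians of -0.69 and 0.24; Fads1 was at -4.24 and -2.49 against 0.60 and -2.40, Elovl6 at -2.0 and -0.73 against 2.46 and -0.77, Scd1 at 2.79 and 2.39 against 0.68 and 1.85 and Mvk at -4.43 and -4.04 against -2.85 and -3.28, at least 2.16-fold lower.

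Interferon-stimulated genes had medians of 0.36 and -0.48, with 2 of 29 apart in each direction, against 17% higher and 8.57% lower among all genes. On slide 2, 5 were at least 1 lower (6.07% of all genes). Ddx58, the RNA sensor RIG-I, was at -0.77 and -1.37 against 0.03 and 0.31, and Parp14 at 0.19 and 0.19 against 2.38 and 0.86; Cxcl10 was at 5.14 and 5.04 against 2.57 and 4.52 and Usp18 at 1.88 and 1.30 against -0.72 and 1.35. Immediate-early and stress genes had medians of 0.53 and -0.01, with 6 of 34 apart in each direction, against 17% higher and 8.57% lower among all genes. Zfp36l1, an RNA decay factor, gave like gaps on both slides, at 2.07 and 2.35 against 4.09 and 4.26. Socs3 was at 1.15 and 0.39 against 2.62 and 1.64, Nr4a1 at 2.44 and 3.54 against 4.78 and 3.99 and the heat shock gene Hspb1 at 3.01 and 2.03 against -0.10 and 1.63.

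Markers of other cells were followed in both gates. Of 10 erythroid genes tested (14 listed, 12 on the array), 9 were higher on both slides and 7 lay apart higher, against 34.6% and 17% of all genes, with medians of 2.05 and 0.79; 4 of the 10 passed the filter in the Meis1-low gate alone. Klf1, the erythroid master regulator, was at -3.57 and -2.77 against -5.98 and -6.62 and at least 1.78-fold higher, Slc4a1, the red cell anion exchanger, at 1.01 and 0.94 against -2.74 and -0.69, Hbb-bh1, an embryonic globin, at -0.23 and -0.33 against -2.76 and -1.52 and Epb42 at -0.58 and -0.67 against -4.70 and -1.61. The adult globin gene Hba-a1 was at 0.72 and 0.35 against -3.47 and 0.85, lower on slide 2 by 0.50 log2 units, and Gata1 was not well above background on both arrays of either gate. The summed erythroid signal was 16.6 to 17.0 in Meis1-low cells and 5.64 to 11.1 in Meis1-negative cells. Myeloid genes had medians of 1.91 and 0.23 with 6 of 17 apart higher (17% of all genes). Of the 17, 4 passed the filter in the Meis1-low gate alone. Without negative replicate 1, 2 lay apart higher and 4 lower (8.27% and 9.14% of all genes). On slide 2, 9 were higher and 8 lower. Of these, 2 were at least 1 higher and 4 at least 1 lower (5.88% and 6.07% of all genes). Itgam was at 1.53 and 0.52 against -1.56 and -0.32 and Mrc1 at -0.80 and -0.34 against -3.47 and -1.73. Adgre1 was at 3.43 and 3.07 against -0.42 and 2.34 and Lyz1 at 3.28 and 3.69 against -0.18 and 3.12. The summed myeloid signal was 68.4 to 69.2 against 14.0 to 73.6. Fibroblast genes summed to 84.3 to 107.6 against 113.7 to 117.9. On slide 2 Cspg4 was 0.76 and Col5a1 0.19 higher, and Postn 1.32 and Thy1 1.15 lower. The slide 2 value of Thy1 equals the median of the thymocyte list. Thy1 was at 5.86 on negative replicate 1, the array with high thymocyte transcripts, and at 3.01 or less on the other arrays. The fibroblast sum of negative replicate 1 includes this signal, and its part in the sum was not tested. Endothelial genes summed to 3.79 to 5.58 against 4.24 to 5.37; Robo4 and Tek were higher on both slides, and Plvap and Vwf were higher on slide 1 and 0.19 and 0.17 lower on slide 2. The 6 adipocyte genes tested summed to 82.1 to 129.5 against 14.5 to 47.4, but most of this sum came from Fabp4 on every array. Of the 6, 3 passed the filter in the Meis1-low gate alone. Fabp4 was at 6.96 and 6.29 against 3.76 and 5.49, and Cidec at 1.24 and 0.45 against -3.97 and -0.65. Retn was 0.01 lower on slide 2, and Adipoq was at -0.61 and -0.57 against -3.69 and -0.77. The part of these cells in the other results was not tested.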

How the data were processed

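RNA of 4 mouse TEC pools was hybridised to 1-colour Agilent arrays. Per the submitters' processing notes and the file headers, intensity was measured with Agilent Feature Extraction 9.5.3.1, and probes are placed on mm9; no other step of the authors is given in the sources used here. The deposited processed intensity of 43379 non-control spots per array was used, without the 53 to 70 outlier spots per array; 0 spots were saturated. The authors' deposited table holds log2 values set to a median of 0 over all 6 arrays for each probe and correlated with the scanner values at r = 0.9999 per array; it served as an alternative. The scanner's above-background mark, deposited as another kind of column, was used as a filter.

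Log2 intensity minus the array's 75th percentile was averaged per probe. Probes well above background on both arrays of a gate were kept (25610 of 41174), and the probe with the highest mean stood for a gene, giving 17639 genes. Symbols came from accessions or RefSeq symbols, with 8331 probes keeping the file's name. Gates were compared with limma 3.58.1 in R 4.3.3 (lmFit, eBayes, Benjamini-Hochberg, threshold 0.05), tested on simulated data; Python 3.11.15 drew tables and figures. With 2 arrays per gate, their number limits the precision. Amplifying 10 ng of RNA can add spread to dim genes.

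The compared arrays, the lists and the rules were chosen with earlier results of these data known. Named genes are the 10 per direction with the smallest unadjusted p among genes with symbols, gates apart and gaps of at least 1 on both slides, since none was called, up to 4 of smallest p per list, and a fixed set. The genes given in further sentences were chosen after their values were seen. A few named genes are not reported here. Alternatives covered background correction, scaling, filters, probes per gene, weights, a replicate block, the 6-array fit and leaving out each array.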

Additional observations from a re-analysis of the deposited data

How the results depend on the processing

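No gene was called by limma at an adjusted p of 0.05 with all 4 arrays, and the count depended on the processing. Normexp background correction gave 9 higher and 62 lower genes, and scaling to the median gave 7 and 97. The fit over all 6 arrays gave 0 and 3. No call was made with quantile scaling, no filter, the 4-array filter, a floor, mean probes, a variance trend, array weights, a threshold of 0.10, the authors' values or the outlier spots kept. Leaving out 1 array in turn gave 0 to 2694 higher and 0 to 812 lower calls, with 17 lower without low replicate 1, 74 lower and 1 higher without low replicate 2, and the highest counts without negative replicate 2 and leaving negative replicate 1 as the lone negative array, which is then assumed to vary like the low arrays; without negative replicate 1 there were 0 and 0. Genes with gates apart ran from 1459 (without negative replicate 1) to 5697 (without negative replicate 2) higher, and from 1612 to 3752 lower, with 2868 lower without low replicate 2; this count was added after seeing the data. The causes were not tested.

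The paired fit, with a replicate block, made 0 calls each way (smallest adjusted p = 0.658, limma), and deviations of same-numbered arrays correlated at 0.0959; same-numbered arrays share a slide and a scan, but the labels do not tie the pools of mice to each other, so the number was not taken as a pairing. Scaling to the median moved the median of all genes by 0.102 log2 units.

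Over the alternatives the median of the Aire-induced list ran from 0.89 to 3.18, of the Aire-independent list from 1.05 to 3.13, of the thymocyte list from -5.38 to -1.23, of the pan-leukocyte list from -3.08 to -1.43 and of the DNA replication list from -1.87 to -0.13, each with 1 sign. On slide 2 alone these 5 medians were 0.82, 0.92, -1.13, -1.33 and -0.30 with median scaling and 0.87, 0.97, -1.24, -1.52 and -0.34 with quantile scaling, settings added after seeing the data. Signal near background limits the 301 higher and 217 lower genes that were apart and dim throughout 1 gate.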

Other observations

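Gene families that share a symbol prefix were counted after the values above were seen, as a description with no test. Of 172 families with at least 10 genes tested, 17 had 50% or more of their members apart higher in Meis1-low cells and 0 had as many apart lower. All 11 alpha-defensin genes (Defa) lay apart higher, with medians of 3.1 on slide 1 and 0.72 on slide 2, as did 12 of 13 small proline-rich genes (Sprr), 13 of 16 carboxylesterases (Ces), 17 of 22 clade B serpins (Serpinb), 10 of 13 beta-defensins (Defb) and 16 of 21 kallikreins (Klk). Keratins (Krt) gave 24 of 36 apart higher, and cytochrome P450 genes (Cyp) 26 of 50 against 17% of all genes. On slide 2 alone fewer were at least 1 higher: 1 of 11 Defa, 4 of 13 Sprr, 4 of 16 Ces, 4 of 22 Serpinb, 2 of 13 Defb, 3 of 21 Klk, 8 of 36 Krt and 13 of 50 Cyp genes, against 5.88% of all genes. Their slide 2 medians ran from 0.42 to 0.72. Members of a family are alike in sequence and lie in clusters, so their probes are not independent. Members that passed the background filter in the Meis1-low gate alone could hardly lie lower. They were not counted per family, so the part of the filter in these family counts is not known.

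The negative arrays also differed from each other in 4 genes known from activated dendritic cells, picked and named here after their values were seen. Itgax, which encodes CD11c, was at -2.86 and -3.50 on the Meis1-low arrays, at -3.30 on negative replicate 1 and at 0.90 on negative replicate 2. Ccr7, the homing receptor of mature dendritic cells, was at -0.41 and 0.00 against -1.55 and 2.37, and Cd83 at 0.72 and 0.63 against -3.48 and 2.59. Il1b was at -0.28 and -0.77 against -0.60 and 3.31. In these 4 genes negative replicate 2 was the highest array and negative replicate 1 was below or near the Meis1-low arrays, the reverse of the thymocyte genes. Cd86, Ccl17 and Ccl22 were likewise higher on negative replicate 2 than on low replicate 2. Cd40 was also higher there, at -0.24 against -0.46, though low replicate 1 was at -0.14. Cd80 and H2-Ab1 did not follow, at 1.78 and 7.36 on negative replicate 2 against 2.05 and 7.57 on low replicate 2. A difference in dendritic cells was not tested.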
